A study of Mus musculus with 10 samples.

Results

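Myc, Mycn and Max were followed across 10 RNA-seq libraries of cultured mouse embryonic stem cells (ESCs) and epiblast-like cells (EpiLCs). They were taken by symbol and are 3 of the 22867 gene symbols in the deposited expression tables. The series asked how the transcriptome changes when ESCs become EpiLCs, and how it differs when the homeobox gene Otx2 is lost or overexpressed. All lines were of the 129SV strain. ESCs, which stand for naive pluripotency, were adapted over at least 5 passages to medium with LIF, the MEK inhibitor PD0325901 (0.8 µM) and the GSK3 inhibitor CHIR99021 (3.3 µM). EpiLCs, which stand for the early post-implantation epiblast, had bFGF and serum replacement for 48 h. There were 2 libraries of R1 ESC and 1 each of E14 ESC, Otx2-/- ESC, R1 EpiLC without activin A, R1 EpiLC with activin A at 20 ng/ml, E14 EpiLC and Otx2-/- EpiLC. The last pair of libraries came from ESCs with an Otx2 transgene under a doxycycline-inducible (tetON) promoter, without and with doxycycline (dox). These transgenic ESCs also lack the endogenous Otx2 alleles, so both of them differ from Otx2-/- ESC by the transgene. The labels read here state neither whether E14 and Otx2-/- EpiLCs had activin A nor the dose and duration of dox. Only R1 ESC had a replicate under the same condition.

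MYC proteins are basic helix-loop-helix leucine zipper transcription factors that bind DNA as dimers with MAX, mostly at the E-box CACGTG, and drive genes of ribosome biogenesis, nucleotide and polyamine synthesis and growth. The MXD proteins, MNT and MGA compete for MAX and repress many of the same sites. In mouse ESCs Myc and Mycn overlap in function: losing both slows growth and protein synthesis, Myc is a target of LIF and Stat3, and GSK3 marks the MYC protein for degradation, so that its inhibition stabilises it.

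The letters CACGTG, whose reverse complement is the same, were searched in 300-base RefSeq promoters (250 bases before to 50 after the start, build GRCm38.p6). They were found in 7.15% of 32851 promoters, and in 10.3% of 11074 promoters of genes that averaged 1 FPKM or more, the deposited unit of expression (fragments scaled to transcript length and to library size). Of 13 promoters of MAX network genes 5 held them (38.5%), as did 11 of 29 promoters of growth and cell cycle targets (37.9%). The same held for 5 of 21 of ribosome biogenesis targets (23.8%) and 0 of 9 of MYC-repressed genes. These promoters belong to 10, 18, 19 and 6 genes in that order. Of the other lists, nucleotide and polyamine targets had 5 of 16 (31.25%), MYC protein turnover 2 of 13 (15.4%) and MYC cofactors 1 of 13 (7.69%). Wnt targets had 1 of 10, LIF and Stat3 targets 1 of 6, ERK targets 0 of 5 and the MYC family 0 of 4. Promoters of a gene can overlap and share an E-box, as for Eif5a, so promoters are not separate genes. The promoter table had entries for Mycn, in whose promoter the letters were not found, and for Max. The windows below are those of Max, of its partner gene Mxd4, and of Nop2 and Apex1, target genes that differed between the R1 ESC replicates. Nop2 and Apex1 were picked for having both an E-box and that difference. Cdk4 (363 and 298 FPKM in replicates 1 and 2) and Ldha (836 and 1137) also held E-boxes and differed less. Whether E-boxes go with the replicate difference was not tested. The E-box is in capitals with 12 bases on each side, 5′ to 3′ on the gene's strand. A match of letters describes the sequence and not a bound site.
Max, E-box at chr12:76962246-76962251, minus strand: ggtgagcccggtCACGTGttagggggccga
Mxd4, E-box at chr5:34187924-34187929, minus strand: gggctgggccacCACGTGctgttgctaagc
Nop2, E-box at chr6:125131823-125131828, plus strand: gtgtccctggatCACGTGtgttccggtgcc
Apex1, the first E-box, at chr14:50924925-50924930, plus strand: gcgctccagaacCACGTGggggcggagccc
Apex1, the second E-box, at chr14:50924949-50924954, plus strand: gagccctcgaatCACGTGaccacaccaatc
Apex1, the third E-box, at chr14:50924970-50924975, plus strand: acaccaatcgccCACGTGggaacaggcaga

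Depth was read approximately from the FPKM steps of olfactory receptor genes and ran from 6550000 fragments in E14 EpiLC to 20600000 in R1 ESC replicate 2. Between 11409 and 12134 entries reached 1 FPKM per library. Markers of the states went with the labels: the summed level of 6 naive ESC markers was 1346 to 1577 FPKM in the 5 ESC libraries without dox and 133 to 235 in the 4 EpiLC libraries, and that of 5 EpiLC markers was 50.5 to 110 and 456 to 580. With dox these sums were 536 and 1275, of which Otx2 itself gave 1059. Otx2 had 7.85 FPKM in Otx2-/- ESC, within the 3.96 to 9.09 of R1 and E14 ESC, 15.8 in Otx2-/- EpiLC, against 39.9 to 151 in the other EpiLCs, and 45.8 in the transgenic ESCs without dox. A value per gene does not show which exons were read, so it does not check the deletion.

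Of the 3 genes Myc varied most. Myc, at chr15:61816896-61821916 on mm9, had 28.7 and 2.29 FPKM in R1 ESC replicates 1 and 2, 7.17 in E14 ESC, 4.02 in Otx2-/- ESC, 5.45 in the transgenic ESCs without dox and 1.15 with dox. In EpiLCs it had 8.01 FPKM in R1 without activin A, 6.64 in R1 with activin A, 32.7 in E14 and 27.8 in Otx2-/-. Thus E14 EpiLC, R1 ESC replicate 1 and Otx2-/- EpiLC were high, the other 7 libraries lay at or under 8.01 FPKM, and ESC and EpiLC overlapped. The highest and lowest levels were 28.4-fold apart. At the approximate depths the lowest value rested on about 24.7 fragments and that of R1 ESC replicate 2 on about 111.

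Mycn, at chr12:12942899-12948642 on mm9, encodes N-MYC, the MYC protein of early embryo and nervous system. Its levels were 45.5 and 30.4 FPKM in R1 ESC replicates 1 and 2, 34.1 in E14 ESC, 30.6 in Otx2-/- ESC, 36.3 in the transgenic ESCs without dox and 17.0 with dox. In EpiLCs Mycn had 31.9 FPKM in R1 without activin A, 33.9 in R1 with it, 42.3 in E14 and 45.0 in Otx2-/-. The 3 libraries with high Myc also had the 3 highest Mycn levels, and the library with dox had the lowest of both. Highest and lowest Mycn were 2.67-fold apart.

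Max, at chr12:78038256-78063235 on mm9, encodes the dimer partner. It had 71.5 and 39.7 FPKM in R1 ESC replicates 1 and 2, 40.8 in E14 ESC, 38.0 in Otx2-/- ESC, 46.0 in the transgenic ESCs without dox and 34.3 with dox. In EpiLCs it had 37.4 FPKM in R1 without activin A, 40.9 in R1 with it, 42.7 in E14 and 41.4 in Otx2-/-. R1 ESC replicate 1 stood above the rest, and the other 9 libraries ran from 34.3 to 46.0 FPKM.

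The only measure of spread within a condition is the pair of R1 ESC replicates, which on the log2(FPKM + 1) scale were 3.17 apart for Myc, 0.56 for Mycn and 0.83 for Max. Over the 9 steps between neighbours in the order of levels, none exceeded this for Myc (largest step 1.68, between Otx2-/- EpiLC and R1 EpiLC without activin A) and none for Max (largest 0.63). For Mycn 1 step did, the 0.80 between R1 ESC replicate 2 and the library with dox below it. The replicates themselves held ranks 2 and 9 for Myc, 1 and 9 for Mycn and 1 and 7 for Max. A step between those ranks is part of the replicate gap and cannot exceed it, so for such steps the comparison decides nothing.

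**Figure D1:**
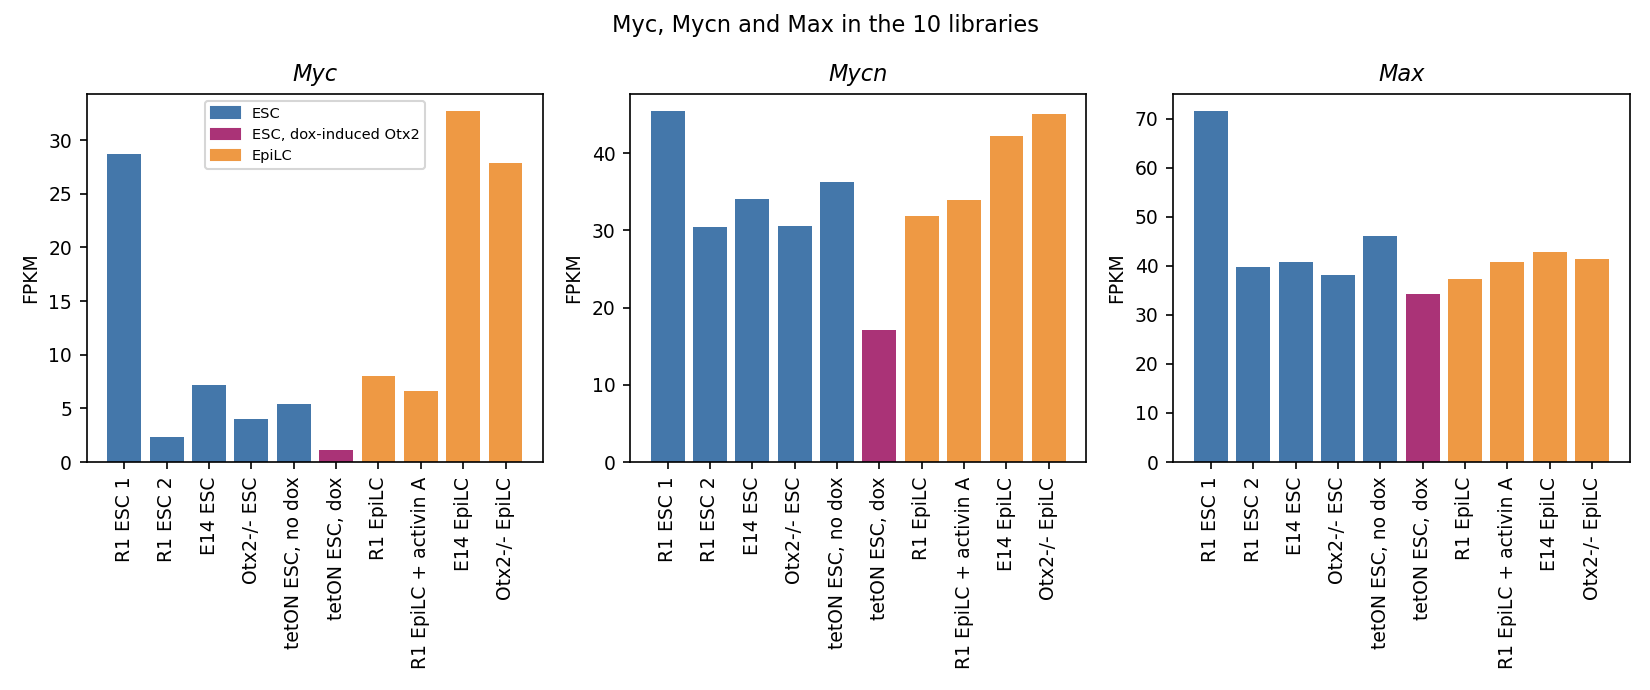
Bars give the FPKM of Myc, Mycn and Max in each of 10 libraries (1 bar per library, blue for ESC, purple for ESC with dox, orange for EpiLC), each panel with its own axis from 0. Myc is high in R1 ESC replicate 1 (28.7), E14 EpiLC (32.7) and Otx2-/- EpiLC (27.8), Mycn is lowest with dox (17.0), and Max is highest in R1 ESC replicate 1 (71.5).

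FPKM is per length, so the levels can be set against each other within a library. Mycn exceeded Myc in all 10 libraries, by between 1.29-fold in E14 EpiLC and 14.8-fold with dox, and the ratio was 1.58 and 13.3 in R1 ESC replicates 1 and 2. Myc made up 43.6% of the summed Myc and Mycn level in E14 EpiLC, 38.7% in R1 ESC replicate 1 and 38.2% in Otx2-/- EpiLC, and from 6.34% to 20.1% in the other 7 libraries. The sum itself was 75.0, 74.1 and 72.9 FPKM in those 3 libraries, 18.2 with dox, and from 32.7 to 41.7 in the other 6. Max relative to this sum was 0.570 in E14 EpiLC, 0.568 in Otx2-/- EpiLC and 1.88 with dox, and in the other 7 libraries it lay between 0.938 and 1.21. In R1 ESC replicate 1, where Max was also high, it was 0.965.

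The R1 ESC replicates, labelled as the same line and medium, were compared first because every test that uses them inherits their difference. Myc was 12.5-fold higher in replicate 1, a log2 ratio of (FPKM + 1) of 3.17 that ranked 42 of the 9149 genes with at least 5 FPKM in 1 of the pair. Mycn was 1.49-fold higher (log2 ratio 0.56) and Max 1.80-fold higher (0.83). A gene was counted when the ratio was at least 1 in size, which held for 6.09% of the 9149 genes upward and 5.42% downward, so of the 3 genes Myc alone was counted. All 9149 genes had a median of 0.22, which was 0.14 after median-ratio scaling and 0.05 after quantile normalisation, under which Mycn and Max stood at 0.31 and 0.54 and Myc at 3.18. With 1 library on each side there is no p-value.

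The lists of MYC targets were compared in the same pair, in which 6.09% of all genes were counted as higher in replicate 1 and 5.42% as lower. These shares are of ratios of at least 1 in size. By sign alone most of all genes were higher in replicate 1, since their median was above 0. All 24 ribosome biogenesis targets were higher in replicate 1, with a median log2 ratio of 0.84 against 0.22 for all genes, and 8 of them were counted, among them Ddx21 (206 and 83.5 FPKM), Nop2 (134 and 61.3) and Ncl (671 and 310), which encode nucleolar proteins of ribosome assembly. After quantile normalisation 22 of the 24 stayed above 0, with a median of 0.53 against 0.05, and 0 were counted. In the nucleotide and polyamine list (median 0.59) the counted genes were Odc1, the first enzyme of polyamine synthesis (516 and 248 FPKM), and Srm, spermidine synthase (305 and 135). Among 19 growth and cell cycle targets with enough signal Apex1, a DNA repair endonuclease with 3 E-boxes in the sequences above, had 134 and 32.6 FPKM, cyclin D1 (Ccnd1) had 54.6 and 19.8, and the transferrin receptor gene Tfrc went the other way with 120 and 285. Of 5 MYC-repressed genes Ndrg1 (8.30 and 21.8) and Ndrg2 (11.8 and 29.8) were counted as lower in replicate 1, and 0 as higher.

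Targets of the culture signals and markers of other cells were read in the same pair, in which 6.09% of all genes were counted as higher in replicate 1. Of 6 Wnt targets Sp5 (15.1 and 0.976 FPKM) and Axin2 (23.5 and 5.89) were counted as higher in replicate 1, of 6 LIF and Stat3 targets Gbx2 (26.6 and 7.31) and Junb (10.3 and 3.52), and of 5 ERK targets Spry4 (31.5 and 7.60) and Dusp6 (28.6 and 8.66). The other members of these lists were not counted, and of those with enough signal Bcl3 (log2 ratio -0.31), Pim3 (-0.17) and Ier3 (-0.57) were below 0. The summed level of 6 primitive streak markers was 14.6 FPKM in replicate 1, the highest of the 5 ESC libraries without dox (range 4.93 to 14.6, Mesp1 under 1 FPKM in every library), with Eomes at 9.31 and 3.18 and T at 2.61 and 0.5995 in replicates 1 and 2, but Gsc at 0.659 and 3.25. For 6 trophoblast markers, which include Eomes, it was 23.0 (range 19.3 to 23.0, Elf5 under 1 FPKM in every library), with Cdx2 at 2.55 and 0.215 in replicates 1 and 2, but Tfap2c at 9.67 and 17.6 and Krt7 at 0.105 and 0.455. The 8 feeder fibroblast markers summed to 2.50 FPKM (range 2.50 to 4.53, with Col1a1, Col3a1, Postn and Lum never over 1), and the 6 primitive endoderm markers to 2.15 (range 1.55 to 3.36, with Sox17, Sox7, Pdgfra and Foxa2 never over 1). The part of other cells or of culture signals in the Myc level was not tested, and in bulk RNA fewer cells with Myc and less Myc per cell cannot be told apart.

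**Figure D2:**
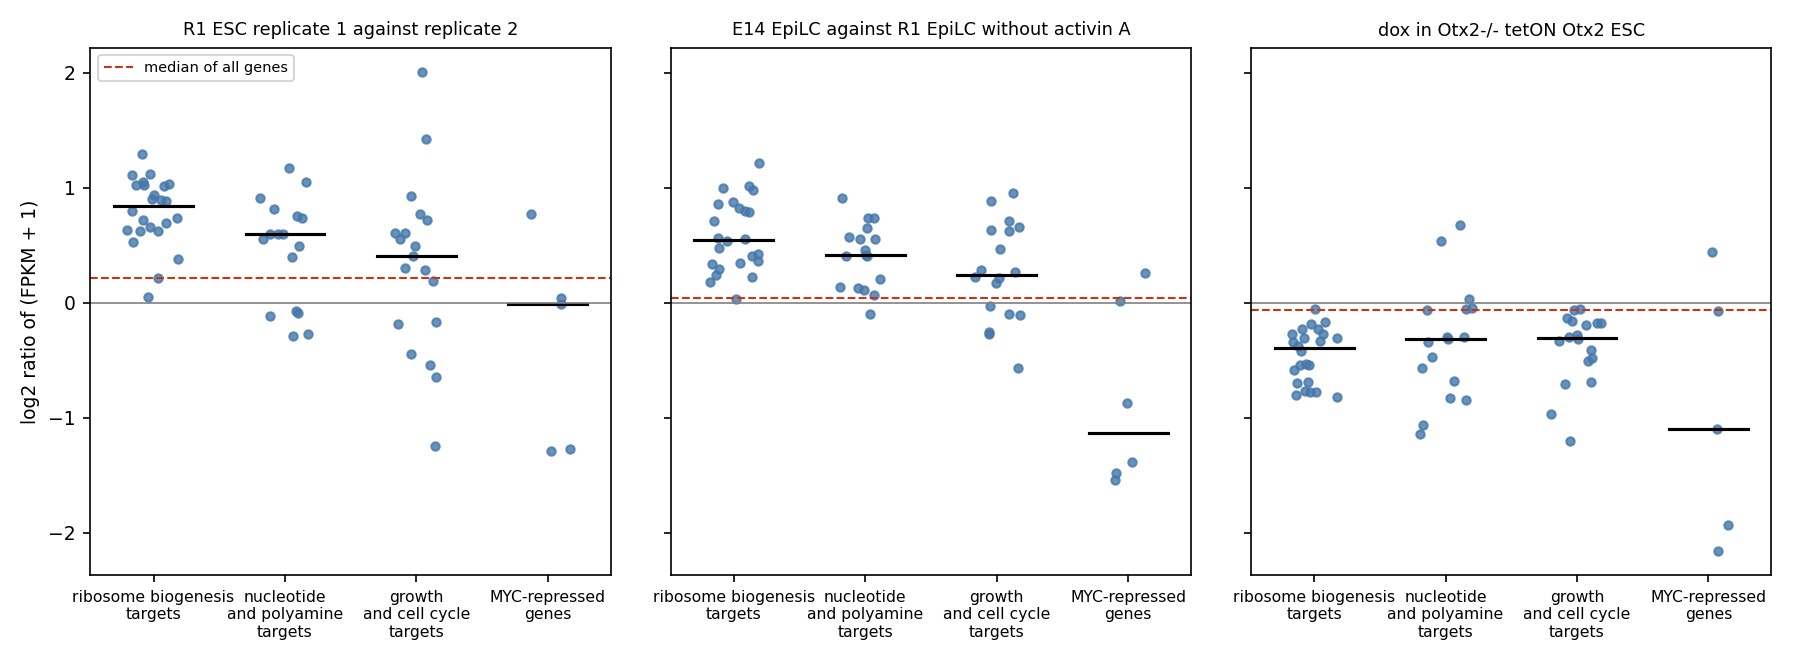
Each point is the log2 ratio of (FPKM + 1) of 1 target gene with at least 5 FPKM in 1 of the pair, for R1 ESC replicate 1 to replicate 2, E14 EpiLC to R1 EpiLC without activin A, and dox to no dox. Black lines are list medians, the red dashed line is the median of all genes and the grey line is 0. Ribosome biogenesis targets have medians of 0.84, 0.55 and -0.40, and the 5 or 6 MYC-repressed genes medians of -0.01, -1.13 and -1.10.

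In the comparison of EpiLC with ESC, 3 R1 and E14 libraries of each state were fitted with limma on log2(FPKM + 1), with the line as a covariate. None of the 3 genes passed, either at an adjusted p of 0.05 or at an unadjusted p under 0.05 (0 of 3), while 9.73% of 12244 genes rose and 10.6% fell. Myc had 12.7 ± 14.04 FPKM in ESC and 15.8 ± 14.7 in EpiLC (SD, n = 3 each), and limma gave a log2 change of 0.51 (SE 0.92, adjusted p 0.711). For Mycn the levels were 36.7 ± 7.84 and 36.0 ± 5.52 FPKM (SD, n = 3 each) with a change of -0.02 (SE 0.21, limma adjusted p 0.964). For Max they were 50.7 ± 18.1 and 40.3 ± 2.70 FPKM (SD, n = 3 each) with a change of -0.27 (SE 0.26, limma adjusted p 0.481). The sign for Mycn was the opposite after median-ratio scaling (0.013) and after quantile normalisation (0.151).

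R1 ESC replicate 1 decided the call for Myc. Without it, limma gave Myc a rise of 1.64 (SE 0.20, adjusted p 0.00818), in a fit that called 15.4% of 12283 genes up and 18.1% down. Mycn then had 0.19 (SE 0.10, limma adjusted p 0.202) and Max 0.01 (SE 0.09, limma adjusted p 0.914). In the pairs that do not use it, Myc was 4.56-fold higher in E14 EpiLC than in E14 ESC (log2 ratio 2.04) and 6.93-fold higher in Otx2-/- EpiLC than in Otx2-/- ESC (2.52). The corresponding ratios were 0.30 and 0.54 for Mycn and 0.06 and 0.12 for Max. These pairs counted 6.89% and 6.99% of genes upward and 9.24% and 8.47% downward, and Myc alone of the 3 was counted. Without R1 ESC replicate 2 instead, the Myc change was -0.175, and without either E14 library it was -0.253.

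**Figure D3:**
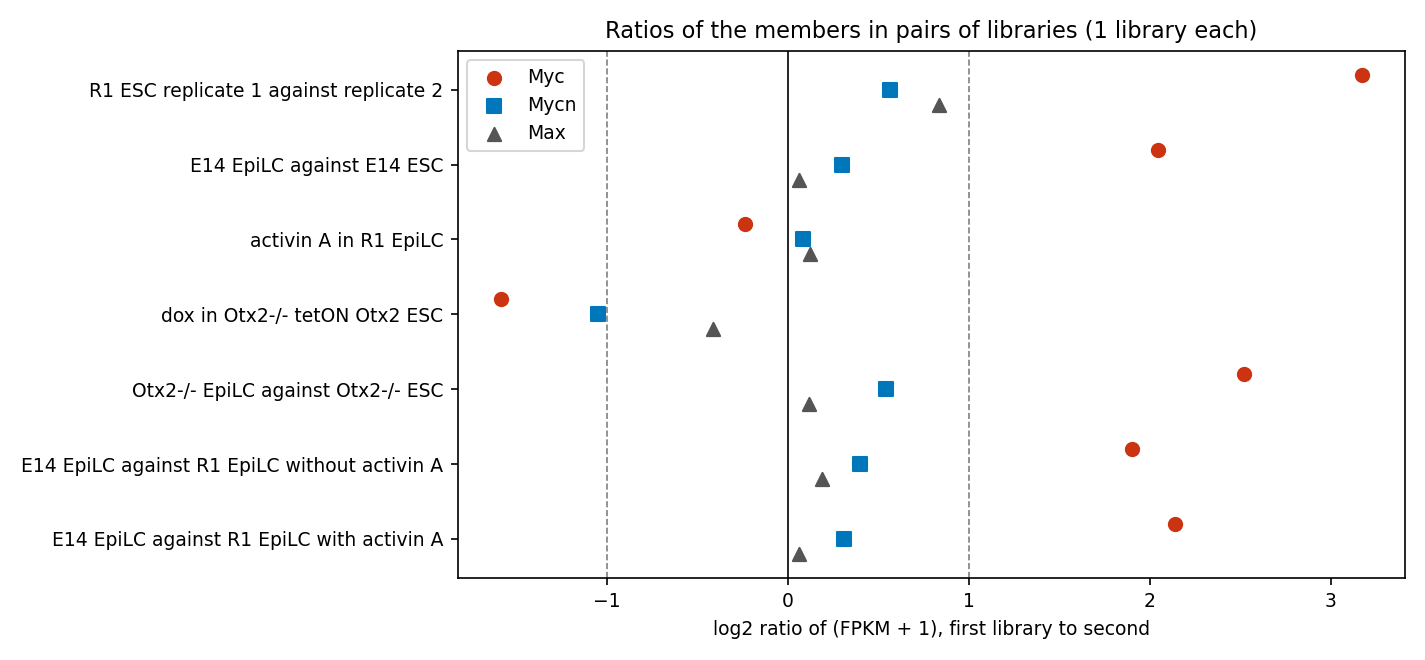
Symbols give the log2 ratio of (FPKM + 1) of Myc (circles), Mycn (squares) and Max (triangles) in 7 pairs of libraries, 1 library on each side, with dashed lines at a ratio of 1 in size. Myc reaches 3.17 between the R1 ESC replicates and 2.52 in Otx2-/- EpiLC against ESC, and both Myc (-1.58) and Mycn (-1.05) lie below -1 with dox.

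The rest of the family and of the MAX network was read in the same fit. Mycl1, which encodes L-MYC, had 4.05 to 7.55 FPKM in R1 and E14 ESC and 8.43 to 11.6 in R1 and E14 EpiLC. In Otx2-/- EpiLC, outside this fit, it had 6.14 FPKM. The limma change of Mycl1 was 0.73 (SE 0.24, adjusted p 0.0879) and did not pass. With R1 ESC replicate 1 left out it passed at 0.93 (SE 0.19, limma adjusted p 0.0248). Bmyc, a truncated relative without the DNA-binding region, had 3.66 to 8.59 FPKM in these ESCs and 9.63 to 10.6 in these EpiLCs (limma change 0.69, SE 0.28, adjusted p 0.145). Mycs stayed at or under 0.442 FPKM and was not tested. Of 10 MAX network genes 2 rose and 0 fell in limma, where 9.73% of 12244 genes rose and 10.6% fell. Both that rose were MXD genes. Mxd4, the repressor gene whose E-box is shown above, had 1.43 and 2.40 FPKM in R1 ESC and 1.53 in E14 ESC, and 10.1, 11.7 and 3.87 in the EpiLCs (limma change 1.68, SE 0.29, adjusted p 0.0169). Mxi1 had 7.64 to 8.37 FPKM in ESC and 10.4 to 17.6 in EpiLC (0.75, SE 0.18, adjusted p 0.0380). Both genes had their highest levels in the R1 EpiLCs, in which Myc, at 8.01 and 6.64 FPKM, ranked 4 and 6 of 10. The libraries with the least Myc, that with dox and R1 ESC replicate 2, had 5.82 and 2.40 FPKM of Mxd4. Their Mxi1 levels were 7.71 and 8.37. Whether Mxd4 or Mxi1 goes with Myc was not tested. Mxd1, Mxd3, Mnt, Mga, Mlx, Mlxip and Mlxipl did not pass with changes from -0.37 (Mlx) to 0.78 (Mlxipl). Without R1 ESC replicate 1 Mlxip (0.39) and Mlxipl (0.49) did, in a fit where 15.4% of all genes rose. Mlxipl encodes the glucose-responsive partner of MLX.

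**Figure D4:**
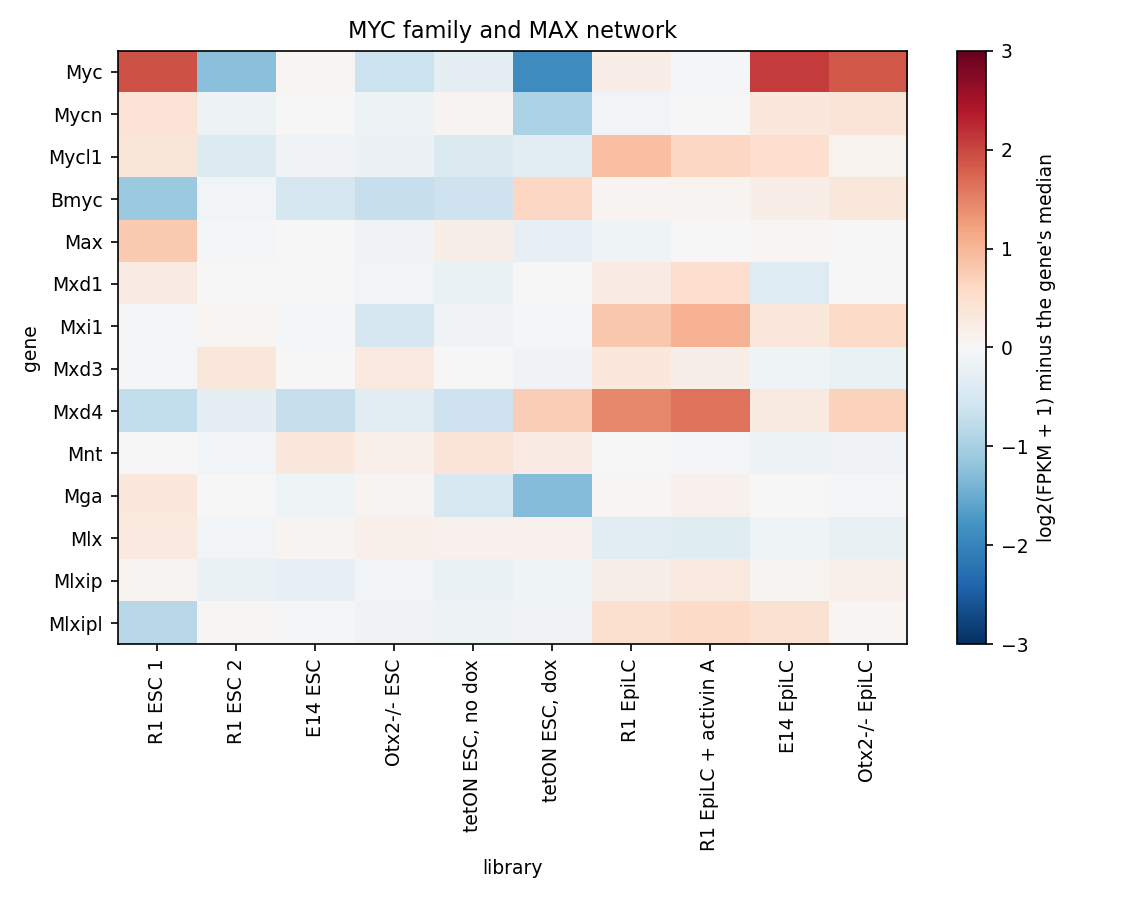
Colours give log2(FPKM + 1) of 14 MYC family and MAX network genes (rows) in 10 libraries (columns) as the difference from each gene's median over the libraries, red above and blue below. Myc shows the widest range, with 3 red libraries and the deepest blue with dox, while Mxd4 and Mxi1 are reddest in the R1 EpiLCs.

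Genes that act with MYC or through it were read from the same fit, in which 9.73% of all genes rose and 10.6% fell. Of 12 cofactors 0 rose and 3 fell in limma, among them Wdr5 (-0.76), which docks MYC on chromatin, and Zbtb17 (-0.71), the MIZ1 partner used in repression. Their list had a median of -0.53 against -0.09 for all genes, and without R1 ESC replicate 1 the count that fell was 7, where 18.1% of all genes fell. Of 10 genes of MYC protein turnover 2 fell, among them the ubiquitin ligase gene Stub1 (-0.62), and 0 rose. In the ribosome biogenesis list 1 of 24 fell (Rrs1, -1.04) and 0 rose, with a median of -0.46. With R1 ESC replicate 1 left out this median was -0.09 against -0.04 for all genes, 1 gene rose (Wdr12, 0.44) and 2 fell (Rrs1, -0.78, and Ppan, -0.56). The list's ratio was 0.11 at the median in E14 EpiLC against E14 ESC and 0.09 in the Otx2-/- pair, where Myc was several fold higher. For reference, 41.5% and 35.8% of genes with enough signal in these pairs had ratios above those of Max (0.06 and 0.12).

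In the nucleotide and polyamine list 1 of 17 fell, the mitochondrial serine hydroxymethyltransferase gene Shmt2 (-1.09), and 0 rose. In the fit lacking R1 ESC replicate 1, 1 gene of this list rose, and Shmt2 (-1.09) and Umps (-0.51) fell. Odc1 did not pass (0.27, limma adjusted p 0.637). Of 20 growth and cell cycle targets Ccnd2 rose (1.63), and Bcat1 (-2.26), of branched-chain amino acid metabolism, and E2f2 (-0.88) fell. In the fit lacking R1 ESC replicate 1, 4 of this list rose and 3 fell, where 15.4% of all genes rose and 18.1% fell, so the list's shares were near those of all genes. Of 7 MYC-repressed genes Gadd45a (1.19) and the CDK inhibitor gene Cdkn2b (1.59) rose and Cdkn1a (-1.14) fell. Upstream, 4 of 6 LIF and Stat3 targets fell and 0 rose, namely Socs3 (-3.52), Bcl3 (-3.48), Stat3 (-1.61) and Pim3 (-0.80). LIF is named for the ESC medium and not for the EpiLC medium. In the Wnt list of 6 genes, the changes that passed were 1.31 for Tcf7, -4.19 for Notum and -4.14 for Cdx1, and without R1 ESC replicate 1 there were 2 upward and 3 downward of 5 tested. Of 6 ERK targets Ier3 rose (2.45), and without R1 ESC replicate 1 Dusp6 also did (2.30).

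The lines were also set side by side within EpiLCs, in pairs added after the data had been seen. Myc was 4.08-fold higher in E14 EpiLC (32.7 FPKM) than in R1 EpiLC without activin A (8.01), a log2 ratio of 1.90 that ranked 51 of 9033 genes, where 1.61% were counted upward and 3.38% downward. Against R1 EpiLC with activin A it was 4.92-fold higher (2.14, rank 52 of 9151, with 2.9% counted upward and 4.88% downward). Mycn ratios were 0.40 and 0.31 and Max ratios 0.19 and 0.06. All 24 ribosome biogenesis targets were higher in E14 than in R1 EpiLC without activin A, with a median of 0.55 against 0.04 for all genes, and Nop16 (41.9 and 17.5 FPKM) and Bop1 (61.6 and 30.0) were counted. Against R1 EpiLC with activin A 23 of 24 were higher, with a median of 0.79, and 8 were counted. In that pair 47.6% of the 9151 genes had a ratio above the 0.06 of Max. Ndrg1 (21.3 and 61.2 FPKM), Ndrg2 (12.2 and 33.4) and Cdkn1b (6.87 and 21.9), which encodes p27, were the 3 of 6 MYC-repressed genes counted as lower in E14 than in R1 without activin A, as was Mxd4 (3.87 and 10.1).

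The line difference in the change of state was tested as an interaction over the 6 libraries, a comparison added after the data had been seen. In limma the E14 change of Myc exceeded that of R1 by 2.30 (SE 1.94, adjusted p 0.914), that of Mycn by 0.48 (SE 0.43, adjusted p 0.914) and that of Max by 0.50 (SE 0.57, adjusted p 0.914). At an unadjusted p under 0.05 the count was 0 of 3 as well, and 0.327% of 12244 genes passed. The Myc value rested on the R1 ESC libraries: with replicate 1 as the only one it was 3.88 (limma adjusted p 0.0393), and with replicate 2 as the only one 0.71 (limma adjusted p 0.404). Depth was lowest in E14 EpiLC, where the Myc level still rested on about 501 fragments. Whether the line, activin A or the single E14 culture goes with the higher Myc cannot be told apart.

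Activin A, a TGF-beta family ligand, went with small differences in the 3 genes in R1 EpiLC. Myc had 6.64 FPKM with it and 8.01 without (log2 ratio -0.24), Mycn 33.9 and 31.9 (0.09) and Max 40.9 and 37.4 (0.12). None was counted, in a pair that counted 1.07% of 8963 genes in each direction. Of the 24 ribosome biogenesis targets 2 were higher with activin A, and the median was -0.22 against -0.01 for all genes. Of 19 growth and cell cycle targets Ccnd2 was counted as higher (10.7 and 4.70 FPKM). These are values of 1 library each.

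For loss of Otx2, each state was compared with its R1 and E14 libraries in a limma fit of 8 libraries, which takes the single Otx2-/- library to vary as much as the rest. In ESC, Myc had 4.02 FPKM in Otx2-/- and 28.7, 2.29 and 7.17 in the others, with a change of -0.89 (SE 1.31, limma adjusted p 1). Mycn had a change of -0.23 (SE 0.27) and Max one of -0.35 (SE 0.34), both with a limma adjusted p of 1, and 0.139% of 12271 genes passed. In EpiLC, Myc had 27.8 FPKM in Otx2-/- and 8.01, 6.64 and 32.7 in the others (1.12, SE 1.31, limma adjusted p 0.960), inside the range of the others. Mycn, at 45.0 FPKM, was above all 3 others (31.9, 33.9 and 42.3) by 0.33 (SE 0.27, limma adjusted p 0.960), and Max differed by 0.04 (SE 0.34, limma adjusted p 0.994). Here 0.163% of genes passed.

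The response from ESC to EpiLC was larger in Otx2-/- than in R1 and E14 by 2.01 for Myc (SE 1.85), 0.56 for Mycn (SE 0.39) and 0.39 for Max (SE 0.49), each with a limma adjusted p of 0.997, and 0.277% of genes passed. In all 3 of these Otx2-/- comparisons 0 of the 3 genes had an unadjusted p under 0.05. The ribosome biogenesis list had a median of -0.20 in ESC (all genes -0.03) and 0.41 in EpiLC (all genes 0.01), with 0 of 24 genes passing in either and 0 at an unadjusted p under 0.05. The SE for Myc was above 1 log2 unit in each of these 3 comparisons. Without R1 ESC replicate 1 the ESC change of Myc was -0.05 and the ESC median of the ribosome biogenesis list 0.05.

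Dox in the transgenic Otx2-/- ESCs went with the lowest levels of all 3 genes. Myc had 1.15 FPKM with dox and 5.45 without, 4.73-fold lower (log2 ratio -1.58). Mycn had 17.0 and 36.3 FPKM, 2.13-fold lower (-1.05), and Max 34.3 and 46.0, 1.34-fold lower (-0.41). Myc and Mycn were counted as lower, where 5.71% of 9304 genes were counted downward and 6.42% upward, and all genes had a median of -0.06. After quantile normalisation the Mycn ratio was -0.97 and no longer counted. Bmyc went the other way (14.6 and 5.60 FPKM), as did Mxd4 (5.82 and 1.66), and both were counted as higher, while Mga had 12.8 and 23.3 FPKM. The library without dox also had 45.8 FPKM of Otx2, and beside Otx2-/- ESC it had 5.45 and 4.02 FPKM of Myc and 36.3 and 30.6 of Mycn.

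In the same dox pair, where 5.71% of 9304 genes were counted as lower, all 24 ribosome biogenesis targets were lower with dox. By sign alone most of the 9304 genes were lower too, since their median was below 0. The median of the 24 was -0.40, but 0 of them reached a ratio of 1 in size. After quantile normalisation 1 of the 24 was above 0. In the nucleotide and polyamine list Shmt1 (32.6 and 73.3 FPKM) and Shmt2 (44.4 and 93.7) were counted as lower, and Odc1 had 171 and 274 FPKM. Of 5 MYC-repressed genes 4 had a ratio below 0 and 3 were counted as lower, namely Gadd45a (4.48 and 10.7), Ndrg1 (5.15 and 22.4) and Ndrg2 (1.85 and 11.7). All 5 ERK targets with enough signal were lower, and 3 were counted, Spry4 (0.388 and 13.9 FPKM), Etv4 (6.10 and 29.7) and Dusp6 (2.66 and 12.7), while Etv5 had 130.8 and 151 and Ier3 7.18 and 8.87. With 1 library on each side none of these differences has a replicate check, and an effect of dox itself cannot be told apart from that of Otx2.

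Likeness to each gene was described by the correlation of log2(FPKM + 1) over the 10 libraries, among 8595 genes that averaged 5 FPKM or more and had no value of 0. The libraries share lines and states, so r is a description. Odc1 came closest to Myc (r = 0.979, Spearman's rho 0.976, n = 10), with 679, 550 and 516 FPKM in the 3 libraries with high Myc, 171 with dox and from 248 to 360 in the other 6. Next to it were 2010204K13Rik and Sephs1, a selenophosphate synthetase gene, both at 0.973, Taf4b, a TFIID subunit gene (0.973), and Cdkn2aipnl (0.971). Without R1 ESC replicate 1 the 5 genes were Wdr12 (0.990), Cdk8 (0.988), Sephs1 (0.981), Odc1 (0.981) and Tlr2 (0.981), so Odc1 and Sephs1 stood in both sets.

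Mycn was most like Socs2, an inhibitor of cytokine signalling (r = 0.988, n = 10), which had 31.6, 30.0 and 27.8 FPKM in the 3 libraries with the highest Mycn, 4.32 with dox and from 12.7 to 19.4 in the other 6. Spry4 (0.975), Tiparp (0.970) and Rnmt (0.956) were also among the 5 most similar, and without R1 ESC replicate 1 Tcf15 (0.989), Socs2 (0.987), Adam19 (0.980), Spry4 (0.979) and Eif2s1 (0.972). Max was most like Rpf1 (0.971), Sfr1 (0.968), Fbxw7 (0.961), Cstf1 (0.958) and Psmg1 (0.956). Fbxw7 encodes the ubiquitin ligase subunit that targets MYC protein, and it had 23.2 FPKM in R1 ESC replicate 1 and 8.73 to 11.7 in the other 9. The Max set rested on that library: without it the 5 were Zbtb9 (0.931), Lrwd1 (0.899), S1pr2 (0.879), Arc (0.863) and Spry4 (0.838). Between the 3 genes, r was 0.876 for Myc and Mycn, 0.599 for Myc and Max and 0.641 for Mycn and Max, and without R1 ESC replicate 1 it was 0.853, 0.547 and 0.802.

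**Figure D5:**
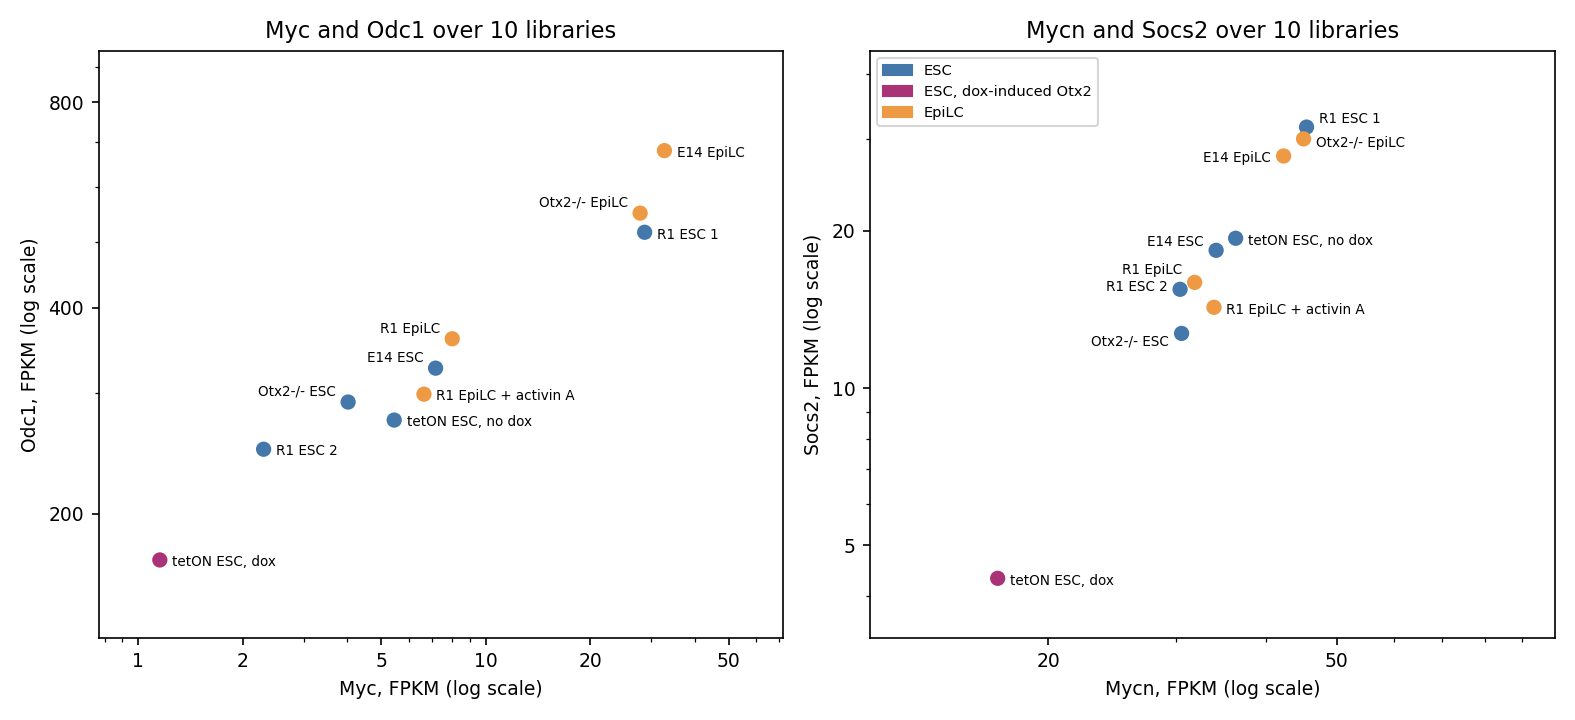
Points are the 10 libraries, with Myc against Odc1 on the left and Mycn against Socs2 on the right, in FPKM on log axes. E14 EpiLC, Otx2-/- EpiLC and R1 ESC replicate 1 lie together at the upper right of both panels and the library with dox lies alone at the lower left.

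The nearest entries on each side of the 3 genes were read for comparison. On mm9, Pvt1, a long noncoding RNA gene that begins 47.6 kb to the right of Myc, had 1.71 to 3.11 FPKM in the 9 libraries without dox and 0.693 with dox, and it was 2.69 and 2.11 in R1 ESC replicates 1 and 2, where Myc differed 12.5-fold. On the other side D030024E09Rik was listed at 0 in all 10 libraries. Beside Mycn, the helicase gene Ddx1, 277 kb away, had 86.9 to 128 FPKM, and 4921511I17Rik had 0.115 to 1.04. Beside Max, Fntb, 15.9 kb away and coding for a farnesyltransferase subunit, had 27.9 to 61.7 FPKM, and Fut8, a fucosyltransferase gene, had 43.4 FPKM in R1 ESC replicate 1 and 11.9 to 26.4 in the other 9.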

How the data were processed

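Per the labels' protocols, polyadenylated RNA was selected, fragmented and random-primed before Illumina sequencing. The authors deposited 1 FPKM value per gene and library, and the submitters' processing notes name TopHat, Cufflinks and mm9. Versions and annotation: not given in the sources used here. No strand-marking step is described, so antisense reads cannot be told apart.

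Of 23112 entries, 17 exact repeats were dropped and 228 entries sharing a symbol were summed. Deposited starts count from 0: spans matched RefSeq gene lengths for 7190 genes on that reading and for 462 otherwise, and printed positions count from 1. Tests used limma 3.58.1 in R 4.3.3 (eBayes with trend, two-sided tests). Genes averaging 1 FPKM or more entered as log2(FPKM + 1), with Benjamini-Hochberg adjustment over all genes tested and a threshold of 0.05. The fit was tested on simulated data with equal noise in every library. No library stood apart there as R1 ESC replicate 1 does here, so that test does not cover such a case. Fold changes on this scale understate those of low genes. Pairs of libraries have no test, and a gene was counted at a log2 ratio of at least 1 in size with 5 FPKM or more in 1 of the pair. The labels' protocols call the ESC and EpiLC cultures independent biological replicates, and p-values reflect only how far these libraries spread.

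The 3 genes and the 17 gene lists (165 entries) were chosen with earlier results of these data known. Named were these 3, family and network genes averaging 1 FPKM or more, up to 3 genes per list and direction by smallest p or largest replicate ratio, neighbours and the 5 most similar genes. Genes given beside these, in the other pairs, were chosen after their values were seen. A few genes that these rules name are not reported here. Alternatives were the pseudocount (0.1), no filter, median-ratio scaling, quantile normalisation, other sets of libraries and leaving out each library.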

Additional observations from a re-analysis of the deposited data

How the results depend on the processing

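Recomputed values of Myc, Mycn and Max, and the counts of genes behind them, were set against the main ones, and 262 were rated unchanged. For limma this meant the same sign and side of the threshold, and for counts of genes a change within 1.5 times. For pairs it meant a shift in ratio under the gene's residual SD in the fit of EpiLC against ESC. For Myc the split of the R1 ESC replicates widens that SD, so the rating says little about its pair ratios. The Myc ratio with dox was rated unchanged at -1.58 and, with a pseudocount of 0.1, at -2.15. The 262 thus include the Mycn ratio with dox, -1.05 and no longer counted at -0.97 after quantile normalisation. They also include the Max ratio of E14 EpiLC to R1 EpiLC with activin A, 0.063 and then -0.033. Of the rest 17 counts of genes moved by over 1.5 times, 11 limma changes changed sign and 2 newly passed. The count for EpiLC against ESC was 2484, between 398 (without R1 EpiLC lacking activin A) and 4118 (without R1 ESC replicate 1) when 1 library was left out, and 3870 over 8 libraries. The Myc change there ranged from -0.253 to 1.64 on leaving out 1 library, Mycn from -0.174 to 0.191 and Max from -0.462 to 0.0149. Mycn was above 0 after median-ratio scaling (0.013), quantile normalisation (0.151) and over 8 libraries (0.124). For Otx2-/- against R1 and E14 the counts of 17 in ESC, 20 in EpiLC and 34 for the response were 34, 59 and 55 without a filter on low FPKM, and the first was 37 with ESC libraries alone. On leaving out 1 library the first ran from 20 to 26 and the second from 21 to 42, both highest without E14 EpiLC, and Max in EpiLC from -0.013 to 0.0806. The E14 response count of 40, added after the data had been seen, was 17 with a pseudocount of 0.1 and from 0 to 127 on leaving out 1 library, with Myc between 0.711 and 3.88. The causes were not tested. No paired analysis was possible because replicate numbers are given for R1 ESC alone. FPKM hold no counts, and depth limits Myc in the library with dox most, at about 24.7 fragments.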
